A study of Mus musculus with 10 samples.

Results

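The first week of culture was examined by setting 2 RNA-seq libraries of mouse testis cells grown for 1 week against 2 libraries of the same kind of cells before culture, 4 of the 10 libraries of the series. At week 1 the cells had been kept in a medium based on Iscove's MEM with 15 ng/ml rat GDNF, 10 ng/ml human FGF2 and 1% fetal bovine serum, and week 0 was the starting population. Both groups came from testes of adult DBA/2 mice, an inbred strain, and had been selected with magnetic beads and an antibody to CD9, a surface protein of the tetraspanin family that spermatogonial stem cells share with other cells of the testis. The labels call all libraries spermatogonial stem cells, but they are bulk cultures, and the sources used here do not mention feeder cells. They also do not say whether the replicates are separate animals or cultures. A p-value here thus reflects how far these libraries vary, and that variation could be technical alone. The libraries of week 2, week 3 and GS cells (established long-term cultures) entered the fit for its estimate of the spread and gave the later course.

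Spermatogonial stem cells are the rare cells at the edge of the seminiferous tubule that keep sperm production going. In the testis, Sertoli cells and peritubular myoid cells feed them GDNF, which acts through the receptor GFRA1 and its partner kinase RET, and FGF2, and both signals run through the ERK and AKT kinases. Cells that leave this state become differentiating spermatogonia, enter meiosis as spermatocytes and then reshape as haploid spermatids, which pack their DNA with protamines and build an acrosome and a tail. Testis cells of mice grown with GDNF and FGF2 are known to lose the later stages, while spermatogonia go on dividing.

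Depth, read from the steps of the low values, was 16.69 and 15.91 M reads at week 1, against 10.35 and 12.66 at week 0. Values are the authors' normalized FPKM, in which reads are scaled by transcript length and library. Replicates correlated across genes at r = 0.9874 (week 1) and 0.9918 (week 0), while libraries of week 1 and week 0 correlated at 0.4708 to 0.4917, where genes are not independent replicates. The most abundant transcripts at week 1 were mt-Cytb, Spp1, mt-Co1 and Saa3, and at week 0 Prm2, Prm1, Tnp2 and Tnp1, which encode the packaging proteins of spermatid DNA. Genes of undifferentiated spermatogonia, the stem cell fraction, held 0.0712% and 0.0753% of the summed FPKM at week 1, against 0.0156% and 0.0167% at week 0. RNA of spermatids, and not of the stem cells in the label, thus led in the libraries of week 0.

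Of 15248 genes tested, 3216 (21.1%) were higher at week 1 and 4990 (32.7%) lower, and 7042 were not called. A gene was called, and is said to have risen or fallen, where limma's adjusted p was under 0.05 and the change at least 2-fold on the log2(FPKM + 1) scale, which understates changes of low genes. The median gene moved by -0.16 on that scale. Under quantile normalization it moved by 0.37, 5208 genes were higher and 3617 lower, so that 59% of the called genes were higher, against 39.2% without it. Counts of lists are therefore read beside the shares of all genes given here. Falls were also deeper than rises: 836 genes fell at least 32-fold on that scale and 69 rose as much. Some genes passed the filter on low values through 1 group alone, 693 of them through week 1 and 1984 through week 0, and for these the filter itself favours a difference. In bulk RNA, fewer cells of a type and less RNA per cell cannot be told apart.

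**Figure D1:**
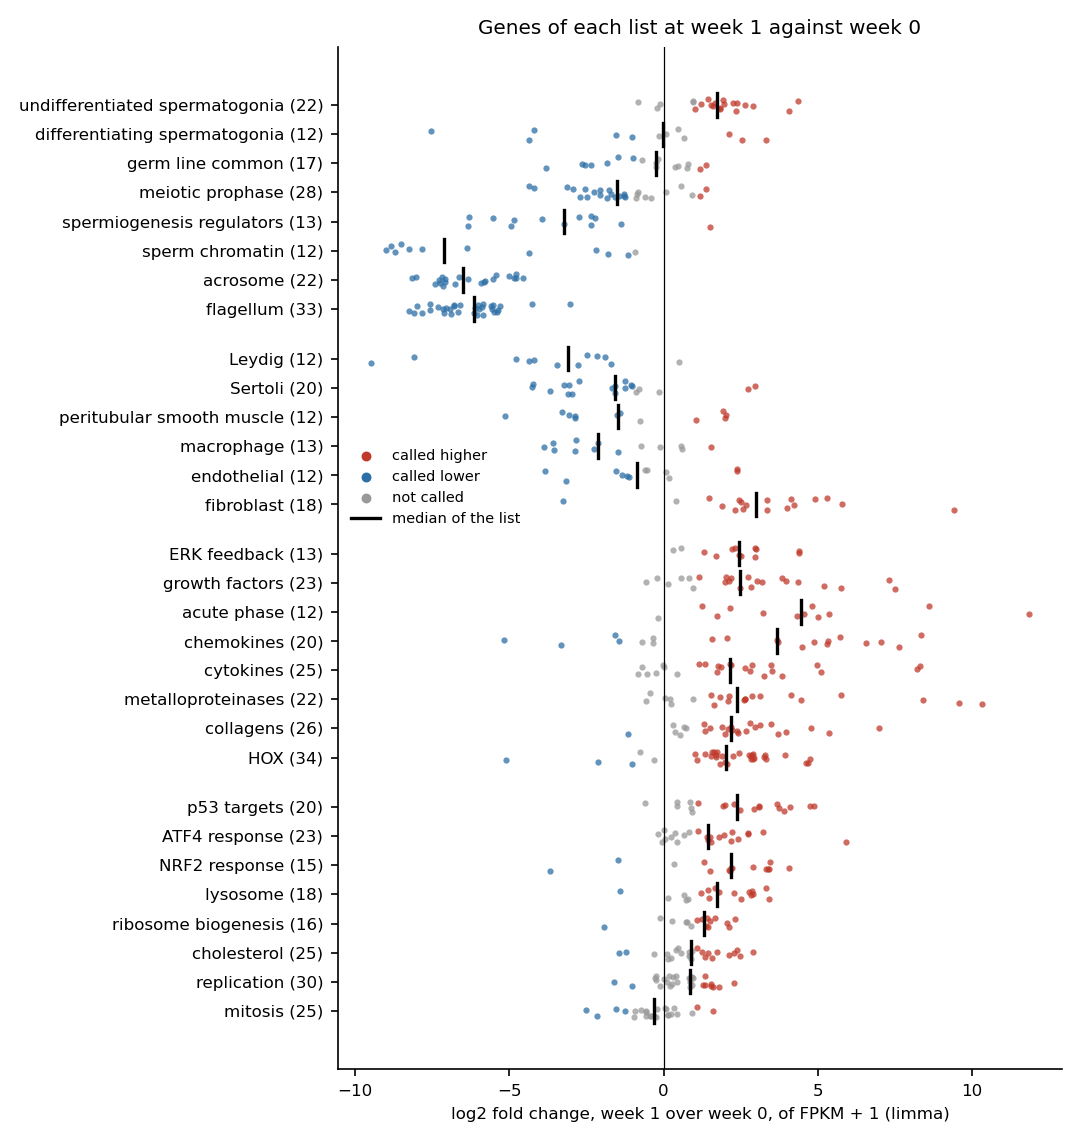
Log2 fold change of FPKM + 1, week 1 over week 0, for each tested gene (point) of 30 lists, with the number of tested genes in brackets. Red points were called higher, blue points lower and grey points neither, and the black bar is the median of the list. Spermatid lists (sperm chromatin, acrosome, flagellum) lie far to the left, with medians of -7.11, -6.50 and -6.15. Acute-phase genes and chemokines lie to the right, with medians of 4.45 and 3.70, or 3.22 and 1.81 without a filter.

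Most genes of undifferentiated spermatogonia rose. Of 22 tested, 17 were higher, 0 lower and 5 not called (median 1.74), and 2 passed the filter through week 1 alone. Another 2 were below the filter, and without a filter the median was 1.63. Of these, Neurog3 had 0.113 and 0 FPKM at week 1, against 1.23 and 0.896 at week 0. Pax7 had 0.434 and 0.371 FPKM at week 1, against 0.19 and 0.0979 at week 0. Gfra1, the GDNF receptor of stem cells, was at 37.2 and 37 FPKM at week 1, against 4.43 and 5.77 FPKM at week 0. The groups did not overlap (log2 fold change 2.65, SE 0.11, limma adjusted p = 8.44e-08). Lhx1, a transcription factor induced by GDNF, was at 34.8 and 34.1 FPKM at week 1, against 1.39 and 0.87 FPKM at week 0 (log2 fold change 4.07, SE 0.14, limma adjusted p = 2.74e-08). Pou3f1, another factor of the GDNF response, was at 22.6 and 23.5 FPKM at week 1, against 2.17 and 2.3 FPKM at week 0, and Bcl6b at 60.8 and 78.9 at week 1, against 2.2 and 2.64 at week 0. Each of these libraries of week 1 stood above both of week 0. The 5 that were not called, named after their values were seen except Id4, were Id4, Etv5, Zbtb16, Utf1 and Tspan8. Etv5 and Zbtb16 (PLZF), transcription factors of self-renewal, lay just under the fold minimum (log2 fold changes of 0.95 and 0.94) and were called under quantile normalization (1.47 and 1.45) and both other scalings, and Utf1 and Tspan8 had negative values (-0.21 and -0.82). Id4, an inhibitor of differentiation that marks the stem cell fraction, was at 12.7 and 12.3 FPKM at week 1, against 14.2 and 12.7 FPKM at week 0, with a difference inside the spread between libraries (log2 fold change -0.1, SE 0.11, limma adjusted p = 0.447). Of the 22 genes, 6 were higher at week 2 than at week 1 and 1 was lower, against 4.27% and 15.3% of all genes, a comparison that shares the libraries of week 1.

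Among 14 surface proteins used to enrich spermatogonia, 11 rose, 1 fell and 2 were not called, and 1 (Thy1) passed the filter through week 1 alone. Cd9, the antigen on which the cells had been selected, was at 252 and 239 FPKM at week 1, against 24.9 and 23.5 FPKM at week 0 (log2 fold change 3.29, SE 0.078, limma adjusted p = 2.82e-09). At week 2 the mean of Cd9 was 102 FPKM, lower than at week 1 (log2 fold change -1.26). Thy1, a marker of spermatogonia that fibroblasts also carry, was at 273 and 235 FPKM at week 1, against 0.389 and 0.397 FPKM at week 0 (log2 fold change 7.51, SE 0.21, limma adjusted p = 7.57e-09). Its mean at week 2 was 24.1 ± 0.908 FPKM (SD, n = 2), far below week 1. Cd63, a tetraspanin of lysosomes and vesicles, was at 702 and 669.8 FPKM at week 1, against 58.4 and 67.2 FPKM at week 0, and Itga6, an integrin of spermatogonia, at 41.9 and 41.7 at week 1, against 9.67 and 8.61 at week 0. The groups did not overlap in either. At week 2 Itga6 had 57.2 ± 1.91 FPKM and was not called against week 1, while Cd63 fell to 167 ± 3.11. Of the 14 genes, 6 were lower at week 2 than at week 1 and 0 higher, against 15.3% and 4.27% of all genes. Kit, the receptor of differentiating spermatogonia, was at 9.7 and 8.91 FPKM at week 1, against 19.4 and 20.3 FPKM at week 0 (log2 fold change -1.02, SE 0.10, limma adjusted p = 2.40e-05). Its call was lost without week 1 replicate 2 (-0.96) or week 0 replicate 2 (-0.99), and under quantile normalization.

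Genes that many germ cell stages share did not move as a group. Of 17 tested, 2 rose, 7 fell and 8 were not called, with a median of -0.25 that turned to 0.20 under quantile normalization. Dazl, an RNA-binding protein of the germ line, was at 292 and 289 FPKM at week 1, against 107 and 116 FPKM at week 0 (log2 fold change 1.37, SE 0.13, limma adjusted p = 1.72e-05), and Dnd1, which works with NANOS2, at 29.2 and 34.2 at week 1, against 12.7 and 14 at week 0. The genes that fell most serve the piRNA pathway, which silences transposons and is most active in spermatocytes. The pathway did not fall as a whole. Piwil2 (-0.70), Mov10l1 (-0.19), Asz1 (0.48) and Fkbp6 (0.36), piRNA genes named after their values were seen, were not called. Pld6, a mitochondrial enzyme of piRNA processing, was at 3.94 and 4.61 FPKM at week 1, against 80 and 66 FPKM at week 0 (log2 fold change -3.81, SE 0.13, limma adjusted p = 2.37e-08). Mael was at 108 and 102 FPKM at week 1, against 704 and 619 FPKM at week 0, and Gtsf1 at 61.7 and 58.4 at week 1, against 368 and 343 at week 0. Ddx4, the germ cell helicase, was at 72 and 70.6 FPKM at week 1, against 213 and 185 FPKM at week 0, a fall that lost its call under quantile normalization (-0.87).

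Differentiation genes went both ways, much as all genes did. Of 12, 3 rose, 5 fell and 4 were not called, where 21.1% of all tested genes rose and 32.7% fell. Their median of -0.03 turned positive under each other scaling (0.12 to 0.41). Stra8, the gene that retinoic acid switches on at the start of differentiation and of meiosis, was at 18.3 and 16.2 FPKM at week 1, against 46.1 and 58.3 FPKM at week 0 (log2 fold change -1.54, SE 0.13, limma adjusted p = 7.17e-06). Dmrtb1, a regulator of the step from mitosis to meiosis, had 1.92 and 2.29 FPKM at week 1, against 582 and 561 FPKM at week 0 (log2 fold change -7.53, SE 0.12, limma adjusted p = 6.08e-10). This was the deepest fall of the list, and the homeobox gene Esx1 also fell, to 1.71 and 1.76 FPKM at week 1, against 51.1 and 47.7 at week 0. Crabp1, a carrier of retinoic acid, was at 415 and 393 FPKM at week 1, against 33.3 and 46.6 FPKM at week 0 (log2 fold change 3.33, SE 0.15, limma adjusted p = 1.42e-07). Ccnd2, the cyclin D2 of spermatogonia, was at 167 and 172 FPKM at week 1, against 10.9 and 69.6 FPKM at week 0. Its libraries of week 0 were far apart, and its log2 fold change was 1.27 without week 0 replicate 1 and 3.84 without week 0 replicate 2.

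Meiotic genes fell unevenly: of 28, 18 were lower, 2 higher and 8 not called (median -1.51). Spo11, which cuts DNA to start recombination, was at 1.69 and 1.04 FPKM at week 1, against 51.7 and 42.2 FPKM at week 0 (log2 fold change -4.35, SE 0.19, limma adjusted p = 1.08e-07). Meioc, which protects the meiotic program, was at 2.84 and 3.65 FPKM at week 1, against 79.9 and 74.2 FPKM at week 0 (log2 fold change -4.21, SE 0.15, limma adjusted p = 2.75e-08). Both had little left at week 1, in contrast to Sycp1. Sycp1, a protein that joins paired chromosomes, was at 72.9 and 51.6 FPKM at week 1, against 67.9 and 49.2 FPKM at week 0 (log2 fold change 0.08, SE 0.21, limma adjusted p = 0.727), and its groups overlapped. Sycp3, an axis protein, was at 37.8 and 36.7 FPKM at week 1, against 93.7 and 91.5 FPKM at week 0 (-1.29, and -0.75 under quantile normalization, where the call was lost). Syce1, another part of the synaptonemal complex, was at 28.2 and 38 at week 1, against 302 and 286 at week 0. The genes that rose were Tex11, on the X chromosome and needed for crossing over, at 26.9 and 27 FPKM at week 1, against 10.1 and 9.51 FPKM at week 0, and Rad21l, a meiotic cohesin, at 7.68 and 7.97 at week 1, against 3.38 and 2.44 at week 0.

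The steps after meiosis fell the most, from their regulators to their products. Of 13 transcription regulators of late germ cells, 12 fell and 1 rose (median -3.23), and 3 passed the filter through week 0 alone. Rfx4, of the RFX family, was listed at 0 in both libraries of week 1 and at 84 and 72.9 FPKM at week 0. Rfx2, a master of ciliary genes in spermatids, was at 3.14 and 3.59 FPKM at week 1, against 209.9 and 188 FPKM at week 0 (log2 fold change -5.51, SE 0.12, limma adjusted p = 1.77e-09), and Crem, the activator of protamine genes, at 36.1 and 33.4 at week 1, against 359.9 and 310.4 at week 0. Fhl5, a partner of CREM, was at 0 and 0.0694 FPKM at week 1, against 81.8 and 85.4 FPKM at week 0. The gene that rose was Taf7l, an X-linked part of the germ cell transcription machinery that spermatogonia also use, at 173 and 154 FPKM at week 1, against 56.1 and 58.2 FPKM at week 0 (log2 fold change 1.5, SE 0.079, limma adjusted p = 3.15e-07).

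All 33 flagellum genes, all 22 acrosome genes and 11 of 12 sperm chromatin genes fell, and 17, 16 and 5 of them passed the filter through week 0 alone. Prm1 was at 17.4 and 15.8 FPKM at week 1, against 5117 and 5588 FPKM at week 0 (log2 fold change -8.25, SE 0.24, limma adjusted p = 7.92e-09). Tnp1, a transition protein that precedes protamines, was at 8.89 and 9.85 FPKM at week 1, against 3564 and 4060.3 FPKM at week 0, and Prm3 at 0 and 0.301 at week 1, against 584 and 578 at week 0. Protamine RNA was still present at week 1. Prm2, named after its values were seen, was at 119 and 110 FPKM at week 1, against 9287 and 9956 FPKM at week 0. At week 2 both Prm1 and Prm2 were listed at 0. Among acrosome genes, Acr, the protease acrosin, was at 0.633 and 0.217 FPKM at week 1, against 251 and 230.2 FPKM at week 0. Zpbp2, an acrosomal protein that binds the egg coat, was at 0.422 and 0.221 FPKM at week 1, against 351 and 331 FPKM at week 0 (log2 fold change -8.02, SE 0.19, limma adjusted p = 2.74e-09), and Izumo1, which joins sperm to egg, at 0.835 and 0.729 at week 1, against 41.4 and 39.9 at week 0. For the tail, Tekt4, a filament protein inside microtubules, was at 0.045 and 0 FPKM at week 1, against 321 and 304 FPKM at week 0 (log2 fold change -8.26, SE 0.10, limma adjusted p = 5.92e-10). Akap3, of the fibrous sheath, was listed at 0 in both libraries of week 1 and at 264 and 249.7 FPKM at week 0. Odf1, of the outer dense fibres, was at 16.8 and 11.7 FPKM at week 1, against 952 and 1001 FPKM at week 0. The motif TGACGTCA, which CREM binds, stood in 0 of 7 chromatin, 1 of 16 acrosome (Izumo1) and 0 of 30 flagellum promoters with a RefSeq entry, against 3.34% of the promoters of tested genes.

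**Figure D2:**
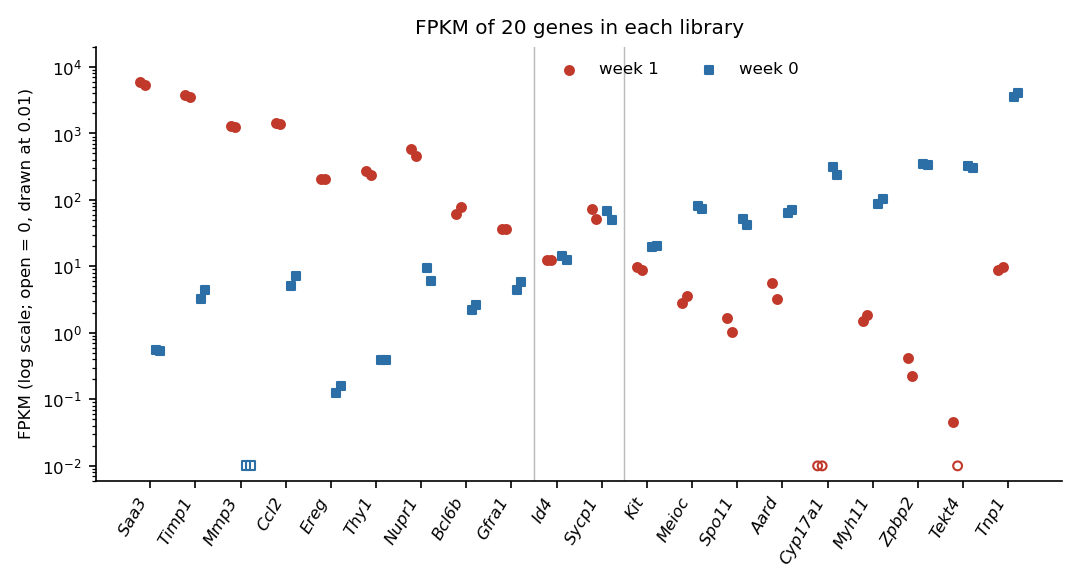
FPKM of 20 genes (horizontal axis) in each library on a log scale, with week 1 as red circles left of week 0 as blue squares, and open symbols for values of 0 drawn at 0.01. The 9 genes on the left rose, Id4 and Sycp1 in the middle were not called, and the 9 on the right fell. Saa3 reached 6029 and 5436 FPKM at week 1, and Tnp1 was down to 8.89 and 9.85.

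Spermatocytes and spermatids use their own forms of many common enzymes, some of them from retrogenes. Of 19 pairs of a testis form and its general counterpart with both genes tested, 17 testis forms fell and 2 were not called. Of the counterparts 14 rose, 1 fell and 4 were not called. Such pairs can share reads, so values of close copies are uncertain. In lactate dehydrogenase, Ldhc made 1.78% and 1.13% of the FPKM of the pair at week 1, against 83.3% and 82.5% at week 0. Its partner Ldha also fell, with 281 and 273 FPKM at week 1, against 698 and 689 FPKM at week 0 (log2 fold change -1.32, SE 0.078, limma adjusted p = 6.96e-07). In glyceraldehyde-3-phosphate dehydrogenase, a step of glycolysis, Gapdhs made 1.02% and 2.01% of its pair at week 1, against 96.4% and 95.5% at week 0. There Gapdh rose, with 393 and 355 FPKM at week 1, against 52 and 68.6 FPKM at week 0 (log2 fold change 2.62, SE 0.15, limma adjusted p = 5.26e-07). The same exchange was seen in the respiratory chain. Cox6b2 made 3.88% and 4.53% of its pair at week 1, against 81.3% and 76.1% at week 0, and Cox8c made 1.48% and 2.27%, against 90.9% and 89.3%. Pabpc2, a poly(A)-binding protein from a retrogene, was a minor form in both groups, with 0.0075% and 0% of its pair at week 1, against 16.8% and 17.1% at week 0.

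Some testis forms held a larger share in GS cells than at week 1 and others did not. Rpl39l, a form of ribosomal protein L39, made 18.5% and 17.8% of its pair at week 1, and GS cells had 75.4% and 76.9%. For Slc25a31, an ADP/ATP carrier, the share was 33.6% and 31.2% at week 1, and GS cells had 69.7% and 67.4%. Its own level was not called between week 1 and week 0 (77.7 and 70.6 FPKM at week 1, against 49.2 and 46.1 FPKM at week 0), and the counterpart Slc25a5 rose. Pdha2, of pyruvate dehydrogenase, went with them, with 10.2% and 10.7% at week 1, while GS cells had 39.4% and 38.6%. Pgk2 did not, with 2.34% and 2.32% at week 1, against 97.6% and 97.2% at week 0, and GS cells stayed low at 0.873% and 1.98%. These 4 pairs were picked after their values were seen, and Rpl39l and Rpl39 are near-identical copies.

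**Figure D3:**
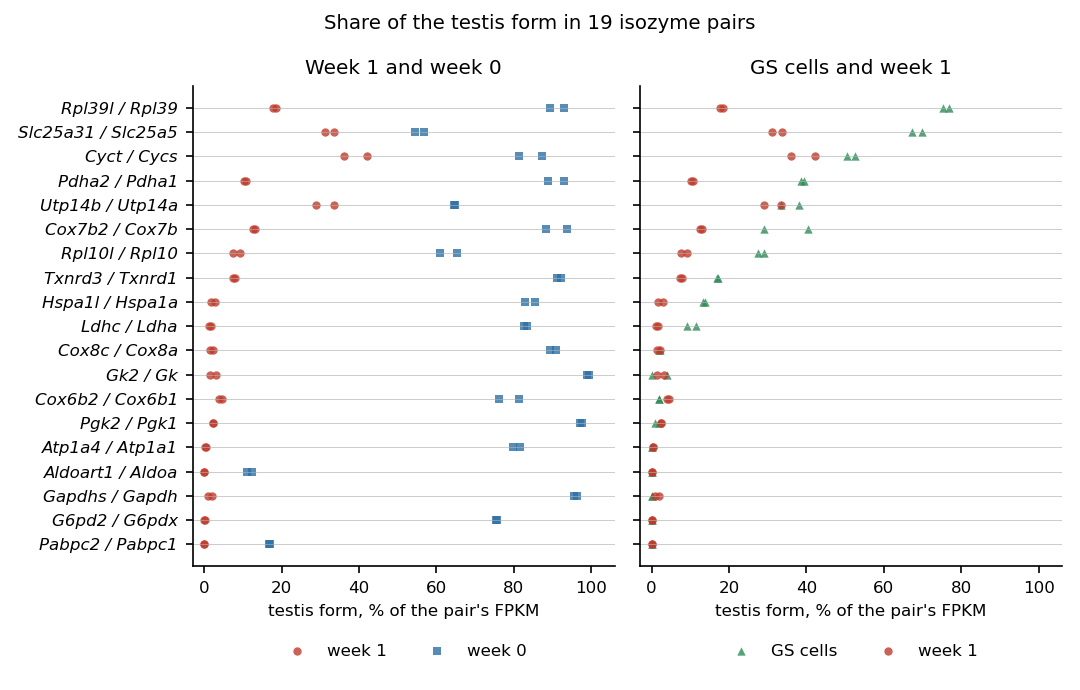
Share of the testis form in the summed FPKM of 19 isozyme pairs, in percent, 1 point per library. The left panel sets week 1 (red circles) beside week 0 (blue squares) and the right panel GS cells (green triangles) beside week 1. The testis form lost share in each pair at week 1, and pairs are sorted by the share in GS cells, from about 76% for Rpl39l downward.

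Of 22 genes for glycolysis and the response to low oxygen, 11 rose, 4 fell and 7 were not called (median 0.54). Hk1, the hexokinase from which spermatogenic cells make their own transcript, was at 27.9 and 30.3 FPKM at week 1, against 1128 and 1059 FPKM at week 0 (log2 fold change -5.19, SE 0.073, limma adjusted p = 5.92e-10). Hk2, the inducible hexokinase, was at 126 and 109.7 FPKM at week 1, against 10.1 and 12.1 FPKM at week 0 (log2 fold change 3.3, SE 0.10, limma adjusted p = 1.21e-08), and the glucose carrier Slc2a1 at 68.4 and 70.1 at week 1, against 8.79 and 8.39 at week 0. Pgk1 was at 123 and 119 FPKM at week 1, against 9.99 and 11.5 FPKM at week 0, but its mean at week 2 was 10.8 ± 1.24 FPKM, back at the level of week 0. Pgam2, a phosphoglycerate mutase of muscle and sperm, was among the 12 deepest falls of all genes, at 1.69 and 1.57 FPKM at week 1, against 1091 and 1074 FPKM at week 0 (log2 fold change -8.69, SE 0.18, limma adjusted p = 1.34e-09).

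Of 17 heat shock proteins 8 fell, 4 rose and 5 were not called, and 3 passed the filter through week 0 alone. The falls were led by chaperones of spermatids. Hspa1l was at 0.633 and 0.359 FPKM at week 1, against 201 and 205 FPKM at week 0, Dnajb13 at 0.278 and 0.624 at week 1, against 223 and 199 at week 0, and Dnajb3 at 4.51 and 3.1 at week 1, against 614 and 601 at week 0. The chaperonins of mitochondria rose, with Hspd1 at 209.6 and 221 FPKM at week 1, against 48 and 51.8 FPKM at week 0 and its partner Hspe1 at 369.8 and 339 at week 1, against 71.3 and 72.1 at week 0. The stress-induced Hspa1a was at 21.7 and 20.8 FPKM at week 1, against 34.4 and 42.2 FPKM at week 0 and was not called (log2 fold change -0.82, SE 0.13, limma adjusted p = 0.000504).

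Most genes of Leydig, Sertoli and macrophage cells fell. Leydig cells make testosterone outside the tubules, and 11 of their 12 genes fell and 1 was not called (median -3.11), and 5 passed the filter through week 0 alone. Cyp17a1, the enzyme that commits steroids to androgens, was listed at 0 in both libraries of week 1 and at 314 and 239 FPKM at week 0. Hsd17b3, which makes testosterone, was at 0 and 0.277 FPKM at week 1, against 33.3 and 27.6 FPKM at week 0 (log2 fold change -4.79, SE 0.17, limma adjusted p = 2.53e-08). Of 20 Sertoli cell genes 15 fell, 2 rose and 3 were not called (median -1.57), 7 passed the filter through week 0 alone, and under quantile normalization 9 fell. Cst12, a cystatin of Sertoli cells, was at 6.08 and 5.64 FPKM at week 1, against 125 and 138 FPKM at week 0 (log2 fold change -4.27, SE 0.18, limma adjusted p = 9.24e-08), and Aard at 5.64 and 3.28 at week 1, against 64.6 and 71.7 at week 0. Sox9, the factor that makes Sertoli cells and also works in cartilage and fibroblasts, went the other way, at 28.4 and 28.3 FPKM at week 1, against 2.6 and 2.94 FPKM at week 0 (log2 fold change 2.96, SE 0.13, limma adjusted p = 1.10e-07). At week 2 it was back at 1.61 ± 0.112 FPKM. Trf, the iron carrier transferrin, was at 77.3 and 97.5 FPKM at week 1, against 9.59 and 15 FPKM at week 0 and had 121 ± 6.12 FPKM at week 2.

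Smooth muscle genes, which peritubular myoid cells and vessels share, changed in both directions: of 12, 7 fell, 4 rose and 1 was not called. Myh11, the myosin of mature smooth muscle, was at 1.5 and 1.89 FPKM at week 1, against 87.6 and 102 FPKM at week 0 (log2 fold change -5.15, SE 0.13, limma adjusted p = 3.19e-09), and Actg2, a smooth muscle actin, at 18.6 and 15.5 at week 1, against 172 and 178 at week 0. Tpm1, a tropomyosin that many spread cells use, was at 510.3 and 498 FPKM at week 1, against 114 and 129 FPKM at week 0 (log2 fold change 2.04, SE 0.08, limma adjusted p = 5.22e-08). Acta2 was at 228 and 227 FPKM at week 1, against 353 and 418 FPKM at week 0 and was not called. At week 2, 10 of the 12 genes were lower than at week 1, against 15.3% of all genes.

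Macrophage genes fell in 8 of 13 cases, with 1 rise and 4 not called (median -2.12), and 4 passed the filter through week 0 alone. Another 3 were below the filter, and without a filter the median was -1.11. C1qa, which with C1qb and C1qc encodes a complement protein of tissue macrophages, was at 0.714 and 1.05 FPKM at week 1, against 24 and 29.4 FPKM at week 0. C1qb was at 0.811 and 0.92 FPKM at week 1, against 21.8 and 20.9 FPKM at week 0, and C1qc at 0.897 and 0.439 at week 1, against 16.3 and 20.8 at week 0. Csf1r, the receptor macrophages need to survive, was at 0.653 and 1.25 FPKM at week 1, against 11.7 and 14.9 FPKM at week 0 (log2 fold change -2.88, SE 0.16, limma adjusted p = 5.19e-07). The gene that rose was Cd14, an endotoxin receptor, at 16.2 and 15.2 FPKM at week 1, against 4.37 and 5.02 FPKM at week 0. Of 12 endothelial genes 6 fell, 2 rose and 4 were not called, and 4 of the 6 that fell, Cldn5 among them, passed the filter through week 0 alone. Under quantile normalization 2 fell, and the median of -0.86 became -0.21. Cdh5 and Pecam1 were not called (log2 fold changes of -0.53 and 0.17). Cldn5, a tight junction protein of vessels, was at 0.345 and 0 FPKM at week 1, against 15.4 and 15.6 FPKM at week 0 (log2 fold change -3.83, SE 0.15, limma adjusted p = 4.54e-08), while Flt1, a VEGF receptor, was at 13.1 and 14.8 at week 1, against 2.24 and 1.57 at week 0. Of 7 erythroid genes 4 were below the filter, and the other 3 fell and had passed it through week 0 alone. Hba-a1, a globin with a near-identical copy, was listed at 0 in both libraries of week 1 and at 6.27 and 5.4 FPKM at week 0. Of 12 lymphocyte genes 6 were below the filter, 3 rose, 2 fell and 1 was not called (median 0.83, and 0.19 without a filter). Both falls and 2 of the rises passed the filter through 1 group alone. Cd3d, a T cell receptor subunit listed at 0 in both libraries of week 1, was at 49.7 and 41.5 FPKM at week 0, while its partner Cd3e was at 8.37 and 7.76 at week 1, against 0.23 and 0.473 at week 0.

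Most fibroblast genes rose. Of 18, 16 rose, 1 fell and 1 was not called (median 3.01), and 3 passed the filter through week 1 alone. Their summed FPKM was 8858 and 8630.5 at week 1, against 709 and 862 at week 0, and none of the 18 was at 0 in both libraries of either group. Fn1, the matrix protein fibronectin, was at 805 and 842 FPKM at week 1, against 17 and 23.6 FPKM at week 0 (log2 fold change 5.29, SE 0.14, limma adjusted p = 5.74e-09). Lum, a collagen-binding proteoglycan, was at 114 and 107 FPKM at week 1, against 0.86 and 1.2 FPKM at week 0, and S100a4, a calcium-binding protein of motile fibroblasts, at 1801 and 1601 at week 1, against 0.325 and 3.61 at week 0. Pdgfra, a general receptor of mesenchymal cells, was at 36.8 and 32.3 FPKM at week 1, against 24.6 and 27.4 FPKM at week 0 and was not called (log2 fold change 0.39, SE 0.15, limma adjusted p = 0.037). Tcf21, a factor of resident stromal cells of the testis, was at 4.05 and 1.58 FPKM at week 1, against 29 and 38.8 FPKM at week 0 (log2 fold change -3.26, SE 0.28, limma adjusted p = 8.07e-06). At week 2 all 18 genes were lower than at week 1, against 15.3% of all genes. The level of these markers stands beside each rise of a secreted factor, a matrix gene or an inflammatory gene below, and its part in them was not tested.

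**Figure D4:**
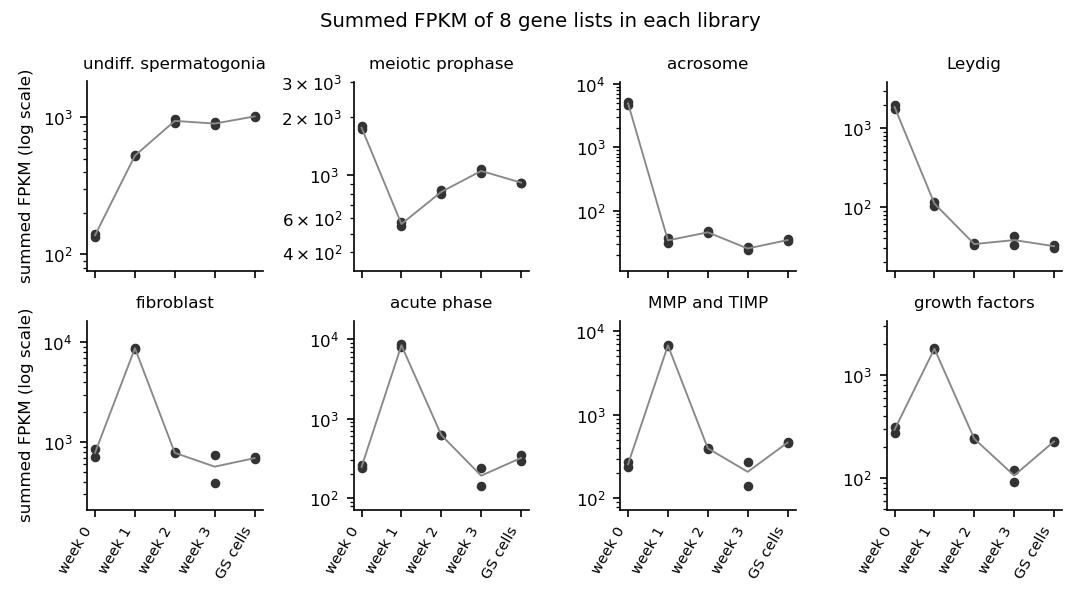
Summed FPKM of 8 gene lists (log scale, 1 panel per list) in each library from week 0 to GS cells, with points for libraries and a line through the means of 2. Genes of undifferentiated spermatogonia climb to week 2 and stay there, acrosome and Leydig genes drop by week 1, and fibroblast, acute-phase, metalloproteinase and growth factor genes peak at week 1. The 2 libraries of week 3 differ in these last 4 panels.

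GDNF and FGF2 were added to the medium, and genes of their receptors moved in both directions. Of 18 receptors and ligands of both families 9 rose, 5 fell and 4 were not called (median 1.02), and 3 passed the filter through week 1 and 2 through week 0 alone. Another 2 were below the filter, and without a filter the median was 0.54. Besides Gfra1, the FGF receptor Fgfr1 rose, with 154 and 171 FPKM at week 1, against 26.1 and 42.7 FPKM at week 0 (log2 fold change 2.25, SE 0.20, limma adjusted p = 9.06e-06), and Sdc4, a proteoglycan that presents FGF2, was at 365 and 409 at week 1, against 40.4 and 52.1 at week 0. At week 2 Sdc4 had 686 ± 21.6 FPKM and was not called against week 1. Receptors for related ligands fell. Gfra2, the receptor of neurturin, was at 1.64 and 2.54 FPKM at week 1, against 21.5 and 24 FPKM at week 0 (log2 fold change -2.96, SE 0.17, limma adjusted p = 6.43e-07), and Klb, a co-receptor of hormone-like FGFs, at 0.205 and 0.0386 at week 1, against 11 and 10.2 at week 0. FGF genes of the mouse cells rose as well. Fgf2 was at 54.9 and 42.1 FPKM at week 1, against 2.93 and 2.27 FPKM at week 0 (log2 fold change 3.78, SE 0.46, limma adjusted p = 7.47e-05), with 2.72 ± 2.49 FPKM at week 2. Fgf7, a ligand made by mesenchymal cells, was at 69.3 and 60.4 FPKM at week 1 and listed at 0 in both libraries of week 0. Fibroblast markers peaked at the same time, as given above.

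Genes that ERK signalling switches on to restrain itself rose in 11 of 13 cases, and 0 fell (median 2.44). Dusp6, a phosphatase of ERK in the cytoplasm, was at 121 and 109 FPKM at week 1, against 12 and 15.1 FPKM at week 0 (log2 fold change 3.00, SE 0.11, limma adjusted p = 3.04e-08). Dusp5, its nuclear counterpart, was at 129 and 126 FPKM at week 1, against 4.72 and 5.47 FPKM at week 0 (log2 fold change 4.4, SE 0.079, limma adjusted p = 7.74e-10), and Spry2, an inhibitor of receptor kinase signalling, at 82.6 and 79.2 at week 1, against 2.61 and 3.15 at week 0. Dusp6 and Dusp5 had means of 98.2 ± 0.623 and 87.9 ± 2.21 FPKM at week 2, where neither was called against week 1, while Spry2 fell to 10.1 ± 0.179. Of 20 immediate early genes, which respond within minutes to growth factors and to handling, 11 rose, 0 fell and 9 were not called (median 1.19). The best known of them were high in both groups: Fos was at 257 and 233 FPKM at week 1, against 272 and 341 FPKM at week 0, and Jun at 97.5 and 99.4 at week 1, against 110.4 and 135 at week 0 (log2 fold change -0.31, SE 0.12, limma adjusted p = 0.0371). Neither was called, and other members rose. Fosl1, which encodes the AP-1 subunit FRA-1, was at 64.8 and 64.1 FPKM at week 1, against 4.75 and 4.31 FPKM at week 0 (log2 fold change 3.57, SE 0.12, limma adjusted p = 2.17e-08), Ier3 at 336 and 361 at week 1, against 19.1 and 21.8 at week 0, and Nr4a2, an orphan nuclear receptor, at 46.7 and 55.2 at week 1, against 1.23 and 1.04 at week 0.

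Growth factor genes, only some of them known from the stem cell niche, mostly rose at week 1 and were lower again at week 2. Of 23, 17 rose, 0 fell and 6 were not called (median 2.47), 6 passed through week 1 alone, and 21 were lower at week 2 than at week 1. Csf1, a factor that raises self-renewal of spermatogonial stem cells in mouse cultures, was at 282 and 277 FPKM at week 1, against 13 and 12.1 FPKM at week 0 (log2 fold change 4.38, SE 0.17, limma adjusted p = 5.22e-08). Lif, a cytokine used to start such cultures, was at 124 and 127 FPKM at week 1, against 1.42 and 1.25 FPKM at week 0 (log2 fold change 5.76, SE 0.15, limma adjusted p = 4.38e-09). Inhba, the subunit of activin A, was at 249 and 261 FPKM at week 1, against 0.436 and 0.774 FPKM at week 0 (log2 fold change 7.33, SE 0.28, limma adjusted p = 4.24e-08), and Ereg, a ligand of the EGF receptor, at 205 and 208 at week 1, against 0.123 and 0.161 at week 0. At week 2 Csf1 and Ereg had 13.6 ± 2.76 and 8.12 ± 0.457 FPKM. Vegfa, the vessel growth factor, was at 203 and 199 FPKM at week 1, against 11.1 and 12.8 FPKM at week 0 and had 9.56 ± 3.35 at week 2. Kitl, the KIT ligand made by Sertoli cells, was at 13.4 and 12.3 FPKM at week 1, against 5.4 and 6.96 FPKM at week 0 and was not called (log2 fold change 0.96, SE 0.25, limma adjusted p = 0.00646). Its call appeared without week 1 replicate 2 (1.02) or week 0 replicate 2 (1.12), and under quantile normalization. The summed level of fibroblast markers moved with this group, and its part was not tested.

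Acute-phase genes, which wounded or infected tissue switches on, had the highest median of all lists (4.45). Of 12 tested, 11 rose, 0 fell and 1 was not called, and 5 passed through week 1 alone. Another 3 were below the filter, and without a filter the median was 3.22. Saa3, a serum amyloid of macrophages and stromal cells, was at 6029 and 5436 FPKM at week 1, against 0.546 and 0.54 FPKM at week 0 (log2 fold change 11.86, SE 0.21, limma adjusted p = 7.60e-10). Its gene lies on chromosome 7, 46711998 to 46715700, on the minus strand of GRCm38, beside close copies, of which Saa1 was not called. Lcn2, an iron-withholding protein, was at 1759.9 and 1690.1 FPKM at week 1, against 204 and 167 FPKM at week 0, and Hp (haptoglobin) at 440.0 and 436 at week 1, against 0.169 and 0.0691 at week 0 (log2 fold change 8.62, SE 0.31, limma adjusted p = 3.36e-08). Tnfaip6, a hyaluronan-binding protein induced by TNF, was at 78.3 and 75.1 FPKM at week 1, against 0.768 and 1.05 FPKM at week 0. All 12 genes were lower at week 2 than at week 1, and Lcn2 then had 26 ± 0.273 FPKM, below week 0.

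Chemokines, the proteins that attract leukocytes, rose in 13 of 20 cases, with 4 falls and 3 not called (median 3.7), and 7 passed through week 1 alone. Another 5 were below the filter, and without a filter the median was 1.81. Ccl2, which attracts monocytes, was at 1445 and 1367 FPKM at week 1, against 5.14 and 7.17 FPKM at week 0 (log2 fold change 7.63, SE 0.24, limma adjusted p = 1.40e-08). Its neighbour Ccl7 was at 499.5 and 457 FPKM at week 1, against 2.42 and 2.77 FPKM at week 0, and Cxcl1, which attracts neutrophils, at 765 and 724 at week 1, against 6 and 7.94 at week 0 (log2 fold change 6.56, SE 0.25, limma adjusted p = 4.61e-08). The groups lay far apart in each. Among the 4 that fell, Ccl27a was at 6.72 and 9.92 FPKM at week 1, against 382 and 281 FPKM at week 0 (log2 fold change -5.16, SE 0.36, limma adjusted p = 1.94e-06), and since it overlaps a neighbouring gene its value is uncertain. Ccl4, a macrophage product, was at 1.96 and 1.64 FPKM at week 1, against 23.2 and 30.9 FPKM at week 0. Of 25 interleukins and receptors 18 rose, 0 fell and 7 were not called (median 2.16), and 6 of the 18, Il6, Il1rl1 and Il1rn among them, passed the filter through week 1 alone. Il6 was at 372 and 339 FPKM at week 1, against 0.0451 and 0.351 FPKM at week 0 (log2 fold change 8.23, SE 0.54, limma adjusted p = 1.25e-06), and Il1rl1, the receptor of IL-33, at 439 and 454 at week 1, against 0.395 and 0.389 at week 0 (log2 fold change 8.33, SE 0.48, limma adjusted p = 5.63e-07). Il1rn, which blocks the IL-1 receptor, was at 34.7 and 37.5 FPKM at week 1, against 0.108 and 0.0348 FPKM at week 0, whereas Il1b, an inducer made by macrophages, was at 1.82 and 2.46 at week 1, against 3.47 and 3.63 at week 0 and was not called.

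Many of these genes are known targets of NF-kappaB, a transcription factor family that inflammation releases from its inhibitors. Of 14 genes of that pathway 9 rose, 1 fell and 4 were not called (median 1.62). Nfkbia, the inhibitor that NF-kappaB itself induces, was at 143 and 166 FPKM at week 1, against 32.7 and 39.4 FPKM at week 0 (log2 fold change 2.07, SE 0.13, limma adjusted p = 8.22e-07), Nfkb1 at 81.3 and 87.6 at week 1, against 9.88 and 12.2 at week 0, and Bcl3, a nuclear partner, at 35.6 and 34.4 at week 1, against 2.37 and 4.32 at week 0. Promoters were searched for the motif GGANNTTCC on both strands, in windows of 250 bases before to 50 after the transcription start. It stood in 4 of 17 chemokine promoters (23.5%) and 0 of 12 acute-phase promoters, against 5.3% of 11798 promoters of tested genes. Among these 4 was Cxcl10, which was not called (log2 fold change -0.71). Over all tested genes the share was 6.67% for those called higher, 4.56% for those called lower and 5.21% for those not called. The promoter of Cxcl1 is shown for its match, in capitals, which starts 70 bases before the transcription start (RefSeq, GRCm38.p6, written 5′ to 3′ on the strand of the gene).
Cxcl1, chr5:90890995-90891294, plus strand: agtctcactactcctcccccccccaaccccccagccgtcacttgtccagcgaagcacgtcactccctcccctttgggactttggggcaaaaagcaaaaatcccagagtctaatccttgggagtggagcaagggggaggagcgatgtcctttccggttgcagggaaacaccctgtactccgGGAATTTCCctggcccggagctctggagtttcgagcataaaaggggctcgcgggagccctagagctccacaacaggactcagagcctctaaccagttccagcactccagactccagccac

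Enzymes that cut the extracellular matrix rose together with their inhibitors. Of 22 metalloproteinase and TIMP genes 16 rose, 0 fell and 6 were not called (median 2.37), 5 passed through week 1 alone, and 19 were lower at week 2 than at week 1. Mmp3 (stromelysin), which activates other members, was at 1286 and 1266 FPKM at week 1 and listed at 0 in both libraries of week 0. Mmp13, a collagenase on the same stretch of chromosome 9, was at 408 and 403 FPKM at week 1, against 0.117 and 0.288 FPKM at week 0 (log2 fold change 8.41, SE 0.24, limma adjusted p = 7.83e-09). Mmp2, a gelatinase of fibroblasts, was at 262 and 249.6 FPKM at week 1, against 11.2 and 16.5 FPKM at week 0 (log2 fold change 4.14, SE 0.31, limma adjusted p = 2.92e-06). Timp1, the inhibitor of all 3 enzymes, rose more in FPKM than any of them, with 3799.6 and 3543 FPKM at week 1, against 3.21 and 4.38 FPKM at week 0 (log2 fold change 9.59, SE 0.32, limma adjusted p = 1.99e-08). At week 2 its mean was 89.6 ± 1.69 FPKM.

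The AP-1 motif TGANTCA, bound by FOS and JUN proteins, stood in 4 of 16 promoters of this list (25%), against 6.76% of the promoters of tested genes. Over all tested genes the share was 9.52% for those called higher, 6.98% for those called lower and 5.41% for those not called. Mmp3 and Mmp13 are shown with the match in capitals, which starts 46 bases before the start of Mmp3 and 35 before that of Mmp13 (RefSeq, GRCm38.p6).
Mmp3, chr9:7445572-7445871, plus strand: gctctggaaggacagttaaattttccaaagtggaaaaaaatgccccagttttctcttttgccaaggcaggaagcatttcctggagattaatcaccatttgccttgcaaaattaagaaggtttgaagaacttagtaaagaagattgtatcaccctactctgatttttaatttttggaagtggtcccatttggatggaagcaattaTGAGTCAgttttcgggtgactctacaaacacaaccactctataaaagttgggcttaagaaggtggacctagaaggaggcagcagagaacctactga
Mmp13, chr9:7272264-7272563, plus strand: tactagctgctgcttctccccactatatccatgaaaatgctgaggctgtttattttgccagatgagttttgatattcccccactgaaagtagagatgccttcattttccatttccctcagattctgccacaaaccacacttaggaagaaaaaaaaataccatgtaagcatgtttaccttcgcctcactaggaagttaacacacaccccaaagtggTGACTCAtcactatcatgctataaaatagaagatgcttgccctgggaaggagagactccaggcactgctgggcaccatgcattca

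Collagens and their processing enzymes rose in 20 of 26 cases, with 1 fall and 5 not called (median 2.2). Chains of fibrils and of the wounded matrix led: Col5a2 was at 152 and 160.3 FPKM at week 1, against 2.57 and 3.15 FPKM at week 0 (log2 fold change 5.35, SE 0.24, limma adjusted p = 1.09e-07), and Col12a1 at 75.6 and 83.9 at week 1, against 2.11 and 1.72 at week 0 (log2 fold change 4.79, SE 0.20, limma adjusted p = 8.36e-08). Lox, which crosslinks collagen, was at 445 and 456 FPKM at week 1, against 2.48 and 2.66 FPKM at week 0 (log2 fold change 6.98, SE 0.27, limma adjusted p = 4.30e-08). Col4a1, a chain of basement membranes, and Col6a1, a chain of microfibrils, were not called. Col4a1 was at 208 and 176 FPKM at week 1, against 145 and 148 FPKM at week 0 (log2 fold change 0.38, SE 0.11, limma adjusted p = 0.012), and Col6a1 at 61.9 and 68.3 at week 1, against 40.8 and 49.2 at week 0. Of 22 integrins and matrix receptors 13 rose, 2 fell and 7 were not called (median 1.55), and 3 passed the filter through week 1 and 1 through week 0 alone. Itga5, which with Itgb1 forms the fibronectin receptor, was at 164 and 162 FPKM at week 1, against 3.61 and 4.32 FPKM at week 0 (log2 fold change 5.05, SE 0.28, limma adjusted p = 4.00e-07), and Itgb1 at 457 and 455 at week 1, against 51.5 and 58.5 at week 0. Cd44, the hyaluronan receptor, was at 208 and 216 FPKM at week 1, against 0.262 and 0.788 FPKM at week 0 (log2 fold change 7.15, SE 0.23, limma adjusted p = 1.67e-08). Itga1, a collagen receptor of smooth muscle, was at 1.71 and 3.03 FPKM at week 1, against 16.7 and 15.5 FPKM at week 0 and fell (log2 fold change -2.37, SE 0.20, limma adjusted p = 7.42e-06). Tnc, a matrix protein of wounds, was among the 12 largest rises of all genes, at 400.4 and 425 FPKM at week 1, against 0.867 and 0.692 FPKM at week 0. Fibroblast markers rose at the same time, and their part in the rises was not tested.

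Of 10 intermediate filament genes 6 rose, 2 fell and 2 were not called (median 1.94), and 2, Krt19 among them, passed the filter through week 1 alone. Another 3 were below the filter, and without a filter the median was 0.35. Vim, the filament of mesenchymal cells, was at 3185 and 3003 FPKM at week 1, against 165 and 220.2 FPKM at week 0 (log2 fold change 4.01, SE 0.25, limma adjusted p = 1.05e-06), and Lmna, the lamin of stiff nuclei, at 299 and 312 at week 1, against 25 and 23 at week 0. Krt18, a keratin of simple epithelia, was at 17.2 and 14.5 FPKM at week 1, against 1.33 and 1.28 FPKM at week 0, and Krt19 at 14.9 and 10 at week 1, against 0.435 and 0.556 at week 0. Des, the muscle filament desmin, was at 2.08 and 3.02 FPKM at week 1, against 22.2 and 27 FPKM at week 0 (log2 fold change -2.86, SE 0.22, limma adjusted p = 3.95e-06). Of 19 cadherins, claudins and connexins 8 rose, 3 fell and 8 were not called (median 0.95). Of these 3 passed the filter through week 1 and 1 through week 0 alone. Gja1, the main gap junction protein of the testis, was at 191 and 212 FPKM at week 1, against 24.6 and 32.8 FPKM at week 0 (log2 fold change 2.79, SE 0.28, limma adjusted p = 2.16e-05), and Cdh11, a mesenchymal cadherin, at 52.2 and 36.1 at week 1, against 3.39 and 3.97 at week 0. Cldn11, of the Sertoli cell barrier, was at 9.37 and 8.24 FPKM at week 1, against 29.2 and 30.9 FPKM at week 0.

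HOX genes, which tell cells their place along the body axis and stand in 4 clusters, mostly rose at week 1. Of 34 tested 29 rose, 3 fell and 2 were not called (median 2.03), 5 more were below the filter, and 22 of the 34 passed through week 1 alone. The HOXB cluster on chromosome 11 was the plainest, and all 10 genes rose. The filter favours a rise for 9 of them, which passed it through week 1 alone. The summed FPKM of the 10, taken without a filter, was 178.6 and 178.5 at week 1, against 4.13 and 5.25 at week 0. Hoxb9 was at 42.1 and 40.3 FPKM at week 1, against 0.407 and 0.726 FPKM at week 0 (log2 fold change 4.76, SE 0.12, limma adjusted p = 4.05e-09), Hoxb8 at 26.3 and 31.1 at week 1, against 0.119 and 0.169 at week 0, and Hoxb7 at 36.3 and 30 at week 1, against 0.355 and 0.435 at week 0. All 9 HOXC genes rose as well, and 6 of them passed through week 1 alone. The HOXC sums were 59.4 and 54.8 FPKM at week 1, against 6.25 and 7.22 at week 0. In HOXA 7 of 9 rose and 2 fell, and 5 passed through week 1 alone. The HOXA sum was lower, with 48.7 and 48.4 FPKM at week 1, against 85.5 and 81.6 at week 0. In HOXD 3 of 6 rose and 1 fell, and 2 passed through week 1 alone. The HOXD sums were 32.9 and 36.8 FPKM at week 1, against 53.2 and 55.4 at week 0. Of the 3 that fell, Hoxa4 and Hoxd8 had the highest values of their clusters at week 0. Hoxa4, which male germ cells are known to transcribe, was at 0.559 and 1.89 FPKM at week 1, against 75.2 and 70 FPKM at week 0 (log2 fold change -5.11, SE 0.25, limma adjusted p = 2.01e-07), and Hoxd8 at 6.4 and 12.7 at week 1, against 42.5 and 43.4 at week 0.

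After week 1 the clusters took different courses. At week 2, 0 of 10 HOXB genes were lower and 1 was higher, while all 6 HOXD and 5 of 9 HOXA genes were lower and 0 were higher. In HOXC 3 of 9 were lower and 1 (Hoxc12, named after its values were seen) was higher, and the sum was 59.4 and 54.8 FPKM at week 1 and 56.9 and 60.7 at week 2. In GS cells the HOXB sum was 185.8 and 173.5 FPKM, and the sums of HOXA (3.21 and 3.07), HOXC (13.8 and 13.7) and HOXD (2.00 and 1.42) were lower than at week 1. Fibroblast markers, whose sums are given above, also rose at week 1, and their part in the HOX values was not tested.

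**Figure D5:**
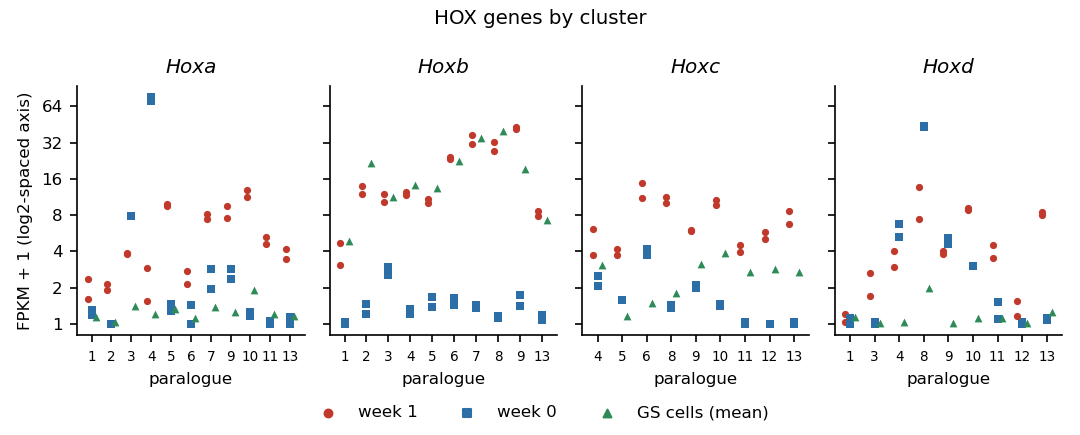
FPKM + 1 of 39 HOX genes (log2-spaced axis) by cluster and paralogue number, with both libraries of week 1 as red circles, both of week 0 as blue squares and the mean of GS cells as green triangles. HOXB genes at week 1 lie above week 0 throughout and GS cells stay near week 1, whereas Hoxa4 and Hoxd8 are highest at week 0.

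Most genes of DNA replication and mitosis were not called. Of 30 DNA replication genes 8 rose, 2 fell and 20 were not called (median 0.85), and under quantile normalization 17 rose. Tyms, which makes thymidylate, was at 63.9 and 66.9 FPKM at week 1, against 11.7 and 13.5 FPKM at week 0 (log2 fold change 2.29, SE 0.11, limma adjusted p = 1.68e-07), and Mcm10, which opens the origin, at 33.3 and 31 at week 1, against 7.74 and 9.34 at week 0. Pcna, the sliding clamp, was at 95.7 and 94.1 FPKM at week 1, against 76.6 and 74.7 FPKM at week 0 and was not called (log2 fold change 0.32, SE 0.066, limma adjusted p = 0.00175). Gins2, a helicase subunit, was at 15.7 and 13.1 FPKM at week 1, against 45.5 and 45.7 FPKM at week 0 and fell. Of 25 mitosis genes 4 fell, 2 rose and 19 were not called, with a median of -0.31 that turned to 0.14 under quantile normalization. Plk1, a kinase of the spindle, was at 12.8 and 12.6 FPKM at week 1, against 81.8 and 71.6 FPKM at week 0, and Aurka, another, at 21.8 and 24 at week 1, against 109.7 and 102 at week 0. Both fell, and Mad2l1 rose. Mad2l1, of the spindle checkpoint, was at 59 and 83.9 FPKM at week 1, against 24.8 and 20.2 FPKM at week 0. Cdk1 was at 55.6 and 61.2 FPKM at week 1, against 80.2 and 79.6 FPKM at week 0 and was not called. Both lists then gained at week 2, where 8 of 30 and 6 of 25 genes were higher than at week 1, against 4.27% of all genes, and 0 were lower.

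Inhibitors of the cell cycle moved in both directions. Cdkn1a (p21), a p53 target that halts the cycle, was at 267 and 259 FPKM at week 1, against 8.85 and 8.72 FPKM at week 0 (log2 fold change 4.75, SE 0.12, limma adjusted p = 4.57e-09). Cdkn2b (p15), which TGF-beta induces, was at 55.4 and 57.8 FPKM at week 1, against 5.52 and 5.39 FPKM at week 0 (log2 fold change 3.16, SE 0.10, limma adjusted p = 1.90e-08). Inhibitors that spermatocytes use fell. Cdkn2c was at 4.34 and 3.52 FPKM at week 1, against 77.6 and 76.1 FPKM at week 0, and Cdkn2d at 9.21 and 8.06 at week 1, against 89.7 and 98.8 at week 0. Ccnd1 (cyclin D1), the growth factor-driven cyclin, was at 212 and 226 FPKM at week 1, against 12.1 and 21.1 FPKM at week 0 (log2 fold change 3.69, SE 0.20, limma adjusted p = 4.51e-07). In the whole list of 20, 7 rose, 5 fell and 8 were not called (median 0.28). Of 20 p53 targets 14 rose, 0 fell and 6 were not called (median 2.39), and 1 (Fas) passed the filter through week 1 alone. Ccng1, which encodes cyclin G1, was at 189 and 173 FPKM at week 1, against 5.05 and 5.3 FPKM at week 0 (log2 fold change 4.88, SE 0.14, limma adjusted p = 7.70e-09), and Fas, a death receptor, at 21.6 and 18.2 at week 1, against 0.301 and 0.123 at week 0 (log2 fold change 4.11, SE 0.15, limma adjusted p = 3.28e-08). Mdm2, which turns p53 over, was at 255 and 271 FPKM at week 1, against 143 and 137 FPKM at week 0 and was not called (0.91, and 1.25 and called under quantile normalization). At week 2, 12 of the 20 were lower than at week 1.

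Of 13 genes of the BCL-2 family, which decides on cell death, 3 rose, 3 fell and 7 were not called. Bax, which permeates mitochondria, was at 349 and 388 FPKM at week 1, against 76.4 and 109.8 FPKM at week 0 (log2 fold change 1.99, SE 0.18, limma adjusted p = 1.07e-05), and Bid at 26.7 and 28.9 at week 1, against 11 and 9.31 at week 0. Bcl2l14 was at 2 and 1.96 FPKM at week 1, against 263 and 267 FPKM at week 0 (log2 fold change -6.48, SE 0.14, limma adjusted p = 1.60e-09), and Bad at 21.1 and 23.8 at week 1, against 68.5 and 65.1 at week 0. Bcl2 itself was low in both groups, at 0.411 and 0.656 FPKM at week 1, against 1.05 and 1.01 at week 0.

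Stress pathways differed in how much they moved. The ATF4 response, which scarce amino acids and other stress set off, had 14 of 23 genes higher, 0 lower and 9 not called (median 1.44). Nupr1, a small chromatin protein induced by stress, was at 577 and 455 FPKM at week 1, against 9.34 and 5.96 FPKM at week 0 (log2 fold change 5.92, SE 0.38, limma adjusted p = 1.11e-06). Atf4 was at 200.5 and 193 FPKM at week 1, against 66.6 and 70.5 FPKM at week 0 (log2 fold change 1.51, SE 0.076, limma adjusted p = 2.38e-07), and Slc38a2, an amino acid carrier, at 93.3 and 97.5 at week 1, against 14.8 and 12.1 at week 0. Ddit3 (CHOP), a target that also answers to the endoplasmic reticulum, was at 78.5 and 78.2 FPKM at week 1, against 85.6 and 91 FPKM at week 0 and was not called (log2 fold change -0.17, SE 0.14, limma adjusted p = 0.273). The composite site that ATF4 and C/EBP proteins bind was searched as TGATGNAA on both strands. It stood in 8 of 21 promoters of the list (38.1%), against 2.84% of the promoters of tested genes. Among all tested genes the share was 3.38% for those called higher, 3.51% for those called lower and 2.13% for those not called. Nupr1 is shown as the gene of the list with the largest change, with its match in capitals, which lies on the opposite strand and starts 110 bases before the transcription start (RefSeq, GRCm38.p6).
Nupr1, chr7:126625421-126625720, minus strand: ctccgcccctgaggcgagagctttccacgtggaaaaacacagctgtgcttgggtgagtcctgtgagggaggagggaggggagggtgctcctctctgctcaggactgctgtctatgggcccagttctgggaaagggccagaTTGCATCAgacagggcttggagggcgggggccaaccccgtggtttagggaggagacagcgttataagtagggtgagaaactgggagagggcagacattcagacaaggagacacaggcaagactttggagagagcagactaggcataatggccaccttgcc

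Chaperones of the endoplasmic reticulum did not move as a list: of 15, 3 rose, 3 fell and 9 were not called (median 0.16). Hspa5 (BiP) was at 456 and 412 FPKM at week 1, against 451 and 497 FPKM at week 0 (log2 fold change -0.13, SE 0.083, limma adjusted p = 0.189), and its groups overlapped. Sdf2l1, a chaperone partner, was at 12.4 and 10 FPKM at week 1, against 69.2 and 67.4 FPKM at week 0, and Herpud1, which helps to clear misfolded proteins, at 38.7 and 39 at week 1, against 171 and 186 at week 0. Both fell. The NRF2 response to oxidants rose in 12 of 15 cases, with 2 falls and 1 not called (median 2.2). Hmox1, which breaks down heme, was at 448 and 427 FPKM at week 1, against 22.8 and 27.2 FPKM at week 0 (log2 fold change 4.08, SE 0.088, limma adjusted p = 1.74e-09). Nqo1, a quinone reductase, was at 42.6 and 36.6 FPKM at week 1, against 2.14 and 3.39 FPKM at week 0 (log2 fold change 3.45, SE 0.20, limma adjusted p = 6.29e-07), and Txnrd1, which recharges thioredoxin, at 265 and 261 at week 1, against 22.6 and 24.1 at week 0 (log2 fold change 3.44, SE 0.069, limma adjusted p = 1.29e-09). The falls were Osgin1, a growth inhibitor, at 9.37 and 9.02 FPKM at week 1, against 135 and 124 FPKM at week 0, and Me1 at 30.2 and 28.8 at week 1, against 87.4 and 78.7 at week 0.

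Lysosomal genes rose in 13 of 18 cases, with 1 fall and 4 not called (median 1.74). Ctsb (cathepsin B) was at 553 and 524 FPKM at week 1, against 66.4 and 75.6 FPKM at week 0 (log2 fold change 2.91, SE 0.12, limma adjusted p = 7.95e-08), and Ctsk, the collagen-digesting cathepsin, at 40.2 and 37.2 at week 1, against 2.28 and 3.86 at week 0. Ctss, the cathepsin of macrophages and other antigen-presenting cells, was at 2.86 and 2.5 FPKM at week 1, against 8.37 and 8.98 FPKM at week 0 and fell along with the macrophage markers. Of 16 genes for MYC and ribosome biogenesis 10 rose, 1 fell and 5 were not called (median 1.31). Myc was at 26.7 and 31 FPKM at week 1, against 4.9 and 5 FPKM at week 0 (log2 fold change 2.32, SE 0.14, limma adjusted p = 7.96e-07) and had 3.71 ± 0.296 FPKM at week 2, while its nucleolar target Ncl was at 519 and 461 at week 1, against 105 and 118 at week 0, with 486 ± 3.85 at week 2. Of 25 genes for cholesterol synthesis and uptake 11 rose, 2 fell and 12 were not called, and 17 rose under quantile normalization. The sterol motif TCACNCCAC stood in 1 of 17 of their promoters (5.88%), against 1.38% of the promoters of tested genes. Insig1, a sensor of sterols, was at 169 and 166 FPKM at week 1, against 20.2 and 23.1 FPKM at week 0 (log2 fold change 2.89, SE 0.092, limma adjusted p = 1.43e-08).

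Retinoic acid drives spermatogonia to differentiate, and its local supply is set by enzymes that make and break it. Of 18 genes 3 rose, 3 fell and 12 were not called (median -0.07, and 0.08 to 0.69 under the other scalings). Crabp2 was 1 of 2 that passed the filter through week 1 alone. Aldh1a1, which makes retinoic acid in Sertoli and Leydig cells, was at 20.8 and 19 FPKM at week 1, against 123 and 120.1 FPKM at week 0 (log2 fold change -2.56, SE 0.23, limma adjusted p = 1.01e-05). Cyp26b1, which breaks it down around the tubules, was at 3.51 and 5.43 FPKM at week 1, against 108 and 119.6 FPKM at week 0 (log2 fold change -4.41, SE 0.19, limma adjusted p = 9.55e-08). Crabp2, a carrier that hands it to its receptor, was at 55.7 and 51.7 FPKM at week 1, against 0.926 and 0.346 FPKM at week 0 (log2 fold change 5.09, SE 0.22, limma adjusted p = 1.01e-07), and Rdh10, which makes the precursor, at 14.1 and 16.1 at week 1, against 4.31 and 3.32 at week 0.

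Imprinted genes, transcribed from 1 parental copy, had 7 of 19 higher, 0 lower and 12 not called. Igf2, a growth factor read from the paternal copy, was at 103 and 116 FPKM at week 1, against 18.2 and 19.8 FPKM at week 0 (log2 fold change 2.47, SE 0.11, limma adjusted p = 1.43e-07), and Igf2r, its maternal counterpart, at 42.1 and 43 at week 1, against 6.98 and 7.58 at week 0. Mest was at 17.1 and 16.8 FPKM at week 1, against 1.06 and 1.84 FPKM at week 0, and Peg3 at 6.39 and 7.57 at week 1, against 3.78 and 3.91 at week 0, where Peg3 was not called. Most genes of DNA methylation were not called, with 1 rise, 1 fall and 7 of 9 not called. Dnmt1, which copies methylation at replication, was at 68.2 and 69.1 FPKM at week 1, against 41.5 and 41.1 FPKM at week 0 (log2 fold change 0.72, SE 0.074, limma adjusted p = 2.56e-05), and Dnmt3a, which adds it, at 34.2 and 33.9 at week 1, against 26.9 and 28.9 at week 0. Tdg, which removes oxidised methylcytosine, was the gene that rose, at 29.7 and 30.3 FPKM at week 1, against 11.3 and 12.3 FPKM at week 0.

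Position in the genome also went with the change. These counts were added after the values were seen. On the X chromosome, which is silenced in spermatocytes and stays largely so in spermatids, 35% of 617 tested genes rose and 26.9% fell (median 0.57). On the autosomes 20.4% of 14600 rose and 33% fell (median -0.19). Of the X-linked genes 121 passed the filter through week 0 alone and 30 through week 1 alone. Of 12 tested genes of the mitochondrial genome, 11 rose and 1 (mt-Nd4l) was not called, with a median of 2.39. The mitochondrial genes held 4.19% and 4.2% of the summed FPKM at week 1, against 0.642% and 0.598% at week 0. mt-Nd1, a subunit of complex I, was at 5878 and 5567 FPKM at week 1, against 833 and 733 FPKM at week 0 (log2 fold change 2.87, SE 0.11, limma adjusted p = 3.81e-08), and mt-Cytb, of complex III, at 9502 and 9387 at week 1, against 1332 and 1293 at week 0. mt-Co1 was at 6938 and 7099 FPKM at week 1, against 2127 and 1951 FPKM at week 0. The next genes along the mitochondrial genome were listed far lower, with mt-Atp6 at 7.74 and 6.41 FPKM at week 1, against 1.81 and 0.824 FPKM at week 0, and mt-Co3 at 5.65 and 6.03 at week 1, against 2.32 and 0.543 at week 0. The cause of these low values was not tested, and single values of mitochondrial genes are uncertain.

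Genes often used as constant references were not constant. Of 15, 9 rose, 1 fell and 5 were not called (median 1.09). Actb was at 2515 and 2281 FPKM at week 1, against 933 and 912 FPKM at week 0 (log2 fold change 1.38, SE 0.13, limma adjusted p = 1.20e-05), and Hprt, on the X chromosome, at 104 and 99.9 at week 1, against 17 and 17 at week 0 (log2 fold change 2.51, SE 0.067, limma adjusted p = 5.28e-09). Tbp, which male germ cells make in excess, was at 49.6 and 65.1 FPKM at week 1, against 164 and 142 FPKM at week 0, a fall that lost its call under quantile normalization (-0.81). Ppia rose too, at 1988 and 1899 FPKM at week 1, against 813 and 917 FPKM at week 0, and lost its call there (0.91). None of the 15 was listed at 0 in these libraries.

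Many genes that rose in the first week were lower again at week 2. Of the 3216 genes that rose, 1306 were lower at week 2 than at week 1 and 68 were higher. Of the 4990 that fell, 312 were lower at week 2 and 239 were higher. Over all 15248 tested genes, 2330 (15.3%) were lower at week 2 than at week 1 and 651 (4.27%) higher. These counts use the libraries of week 1 on both sides, so a high value there by chance enters both. Serpinb2, a plasminogen activator inhibitor among the 12 largest rises, shows the common course, at 445 and 421 FPKM at week 1, against 0.694 and 0.284 FPKM at week 0 and 6.95 ± 1.06 FPKM at week 2 (SD, n = 2).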

How the data were processed

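Cells of adult DBA/2 testes, selected with anti-CD9 beads, gave 2 libraries in each of 5 groups, and 4 libraries (week 1 and week 0) make the main comparison. Per the labels' protocols, TruSeq Stranded mRNA libraries were sequenced on a NextSeq 500. The submitters' processing notes name Cufflinks 2.2.1 and Cuffdiff, the aligners HISAT2 2.1.0 and Bowtie2 2.3.4.1, the trimmer cutadapt 1.16, and mm10 as the build. The deposited values are the authors' normalized FPKM per gene, and the sources used here name neither the normalization method nor the annotation release. Of 21969 genes, 21951 matched GENCODE M21, 27 symbols turned into dates were restored, and 19 symbols stood on more than 1 row. The file holds no counts, so relative depth was read from the steps of the low values of 2268 single-transcript genes (95.81% to 99.39% of values were whole reads within 0.15 of a read).

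Genes were kept where at least 2 of the 4 libraries reached 1 FPKM, and were tested with limma 3.58.1 (R 4.3.3) on log2(FPKM + 1), with all 10 libraries in the fit, a trended variance and Benjamini-Hochberg adjustment over the 15248 genes. The fit left 5 residual degrees of freedom. Week 2 was set against week 1 in the same fit. Genes to name were drawn from the 12 largest changes each way without overlap, and of each list the first 2, up to 3 called genes in its main direction and up to 2 in the other, and not all of them are printed. Lists share some genes. Members and lists were chosen with earlier results of these data known. Promoters came from RefSeq (GRCm38.p6). Other pseudocounts, filters, scalings, variance models, call rules, library sets and left-out libraries were tried. Deviations of same-numbered libraries correlated at -0.0169 between week 1 and week 0, and the main fit had no replicate block. With so few libraries this cannot tell whether same-numbered libraries share an origin.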

Additional observations from a re-analysis of the deposited data

How the results depend on the processing

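Each count and each named gene was recomputed under the other settings, and no named gene changed direction beyond the threshold under any of them. The 3216 genes higher at week 1 became 5208 under quantile normalization, of which 3203 were shared, and 5597 with no fold minimum. The 2981 genes that differed between week 2 and week 1 became 1607 with a pseudocount of 5, 1389 with limma's test against a 2-fold change and 8623 with no fold minimum. Other settings moved these 3 counts by less than 1.5 times. Leaving out 1 library at a time gave 3122 to 3277 genes higher at week 1, 4896 to 5020 lower, and 2975 to 3162 that differed between week 2 and week 1. A lone library left in a group is assumed to vary like the other groups.

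With the replicate block 3212 genes were higher, 4990 lower and 2978 differed between week 2 and week 1, and the block changed no call of a named gene. Of 287 named genes, quantile normalization ended the call of 18 and gave one to 11, and the test against a 2-fold change ended 25. Some list medians changed sign: differentiation genes were at 0.02 and 0.08 without week 1 replicate 1 or week 0 replicate 2, retinoid genes at 0.06 with a minimum of 5 FPKM, DNA methylation genes at -0.03 and -0.19 without week 1 replicate 2 or week 0 replicate 1, and lymphocyte genes at -1.39 with a minimum of 5 FPKM, against 0.83 without it. The cause was not tested. With 2 libraries in a group, precision rests on the spread pooled over all groups, and the lower depth at week 0 limits what can be said of genes listed at 0 there.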
